A study of Mus musculus with 2 samples.

Results

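Natural killer (NK) cells were taken from 2 single-cell RNA-seq libraries of mouse MC38 tumors, 1 from untreated tumors and 1 from tumors injected with MSA-2. They were chosen by counts of unique molecular identifiers (UMIs), the tag that marks each captured RNA molecule. A barcode needed at least 2 UMIs in sum of Ncr1, Klrb1c and Klre1, at most 1 UMI in sum of Cd3d, Cd3e and Cd3g, and 0 UMIs of Cd8a, Cd8b1 and Cd4. C1qa, C1qb and C1qc had to hold under 0.1% and S100a8 and S100a9 under 1% of its UMIs, which leaves out macrophages and neutrophils. Of 14039 untreated and 13963 MSA-2 barcodes that had 500 genes or more and no more than 20% of UMIs from mitochondrial genes, 222 and 126 met the rule, 348 of 28002 in all. The levels of these genes chose the cells and are therefore not results.

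MC38 is a colon carcinoma line of C57BL/6 mice, and MSA-2 is a small-molecule agonist of STING, the receptor that turns on type I interferon and NF-κB signaling when cyclic dinucleotides are present in the cytosol. Tumors received 3 injections at intervals of 3 days into the tumor and were collected on day 7. The comparison tumors are labelled untreated, called saline-treated in the methods, and described as given saline with DMSO in the series record. The tumors of 3 mice were pooled for each condition, so there was 1 library per condition, the spread between mice is unknown, and no test between the conditions was possible. All intervals below are exact at 95% and hold counting error alone.

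NK cells are innate lymphocytes that kill stressed, infected or malignant cells without prior sensitization. They release perforin, which opens the target membrane, and granzymes, the serine proteases that enter through it, and they secrete interferon-γ and chemokines that call in dendritic cells and T cells. Type I interferon, IL-12, IL-15 and IL-18 arm them, whereas TGF-β turns them toward a less cytotoxic state that resembles tissue-resident type 1 innate lymphoid cells (ILC1). The 3 genes of the rule encode receptors. Ncr1 (chr7:4337724-4345164, GRCm38) encodes NKp46, Klrb1c (chr6:128778485-128789215) encodes NK1.1, and Klre1 (chr6:129577905-129585827) encodes an NK lectin-like receptor.

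NK cells had a median of 5865 UMIs and 2240 genes in the untreated library and of 7333 UMIs and 2452 genes in the MSA-2 library. Their summed UMIs were 1810874 and 1491659. A UMI of Ncr1 was present in 145 untreated and 70 MSA-2 cells, of Klrb1c in 136 and 100, and of Klre1 in 199 and 119. Some genes known from NK cells but outside the rule were also found in many of these cells, and others in few. With every cell reduced to 1500 randomly drawn UMIs (thinning), which 221 and 125 cells allowed, Nkg7 was found in 71.9% and 68.8%, Tyrobp in 74.2% and 74.4%, and Klrk1 in 45.7% and 28.0% of NK cells. Eomes was found in 14.5% and 13.6% and Itga2 in 2.26% and 0.8% of them. Nkg7 was also found in 77.0% and 62.2% of CD8 T cells, but in 2.07% and 0.446% of C1q macrophages. Tyrobp was found in 84.3% and 79.5% of C1q macrophages, but in 5.81% and 2.22% of CD8 T cells. Neither gene alone thus sets NK cells apart. Some T cell markers were low. Trac, the constant region of the T cell receptor α chain, was at 10.5 and 2.68 CPM (UMIs of the gene per 1000000 UMIs of the class), against 279 and 219 CPM in CD8 T cells, and Cd5 and Cd6 had 2 and 3 UMIs in untreated and 0 in MSA-2 NK cells. Trbc1 (292 and 242 CPM) and Trbc2 (136 and 87.2 CPM), whose transcripts NK cells can make from the unrearranged locus, were present. The summed level of 12 T cell markers, not all named here, was 627 and 446 CPM in NK cells.

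At the limit on NK UMIs the cells just inside the rule were shallower than those just outside it, and at the limit on Cd3 UMIs deeper. With exactly 2 UMIs of the NK genes there were 48 untreated and 18 MSA-2 cells, at medians of 4476.5 and 8942.5 UMIs with Gzma at 649 and 901 CPM, Nkg7 at 552 and 133 CPM and Klrk1 at 182 and 23.9 CPM. In the 18 MSA-2 cells Gzmc was at 1037 and Gzmf at 1199 CPM, and all of these genes were below their level over all MSA-2 NK cells. With 1 such UMI there were 219 and 162 barcodes, at 19387 and 23122 UMIs and with Gzma at 33.9 and 41.0 CPM. The 17 and 4 members with 1 Cd3 UMI had medians of 7285 and 10861.5 UMIs, and the barcodes that failed by Cd3 alone with over 2 such UMIs, 24 and 6 in number, 4244.5 and 5961.5. Of 470 and 174 barcodes with at least 2 NK UMIs, 225 and 40 had more than 1 Cd3 UMI, and 199 and 33 had a Cd8 UMI.

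Deep cells weighed more in the MSA-2 library. NK cells over 10000 UMIs numbered 37 of 222 and 44 of 126, and held 43.2% and 68.3% of all NK UMIs. Scrublet called 15 (6.76%) and 13 (10.3%) of the NK cells doublets, of which 12 and 11 were among these deep cells. Transcripts of genes that mark other cells were found in NK cells, and their origin in free RNA or doublets was not tested. The summed share of 8 genes that mark the Ptprc-free tumor-like cells (Sparc, Serpinh1, Rhox5, Gng11, Cald1, Csrp2, Tpm2 and Fstl1, chosen after their values were seen) reached 38.6% and 48.7% of the level of those cells over all NK cells, 73.5% and 65.5% in the deep ones, and 12% and 12.6% in NK cells of at most 10000 UMIs. These are sums, and the median deep cell had 0.398% (untreated) and 0.117% (MSA-2) of its UMIs from these genes. The levels the results turn on are therefore also given for the 185 untreated and 82 MSA-2 NK cells of at most 10000 UMIs, called shallow NK cells below. No NK barcode was a member in both libraries, and 3 of them occurred among the barcodes of the other library.

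NK cells held 222 of 14039 untreated barcodes (1.58%, interval 1.38% to 1.80%) and 126 of 13963 MSA-2 barcodes (0.902%, 0.752% to 1.07%). Their share was lower in the MSA-2 library, with a log2 ratio of -0.81 (-1.14 to -0.49). The size and sign of this difference moved with the denominator. Of barcodes with a UMI of Ptprc, which encodes the leukocyte antigen CD45, NK cells were 218 of 7682 (2.84%) and 122 of 5240 (2.33%), a log2 ratio of -0.29 (-0.62 to 0.04). With neutrophil-like barcodes (at least 1% S100a8 and S100a9) also left out they were 2.84% and 3.11%, a log2 ratio of 0.13 (-0.20 to 0.45). Among the leukocytes other than neutrophils, a difference in the NK share was thus not detectable at these cell numbers. The share of CD8 T cells differed by more. CD8 T cells, gated on at least 2 Cd3 UMIs with a Cd8 UMI and no NK UMI, went from 421 (3.00%) to 47 (0.337%), a log2 ratio of -3.16 (-3.62 to -2.72). Per 100 CD8 T cells there were 52.7 untreated and 268 MSA-2 NK cells, a log2 ratio of 2.35 (1.79 to 2.91). C1q macrophages went from 25% to 6.65% of barcodes.

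**Figure D1:**
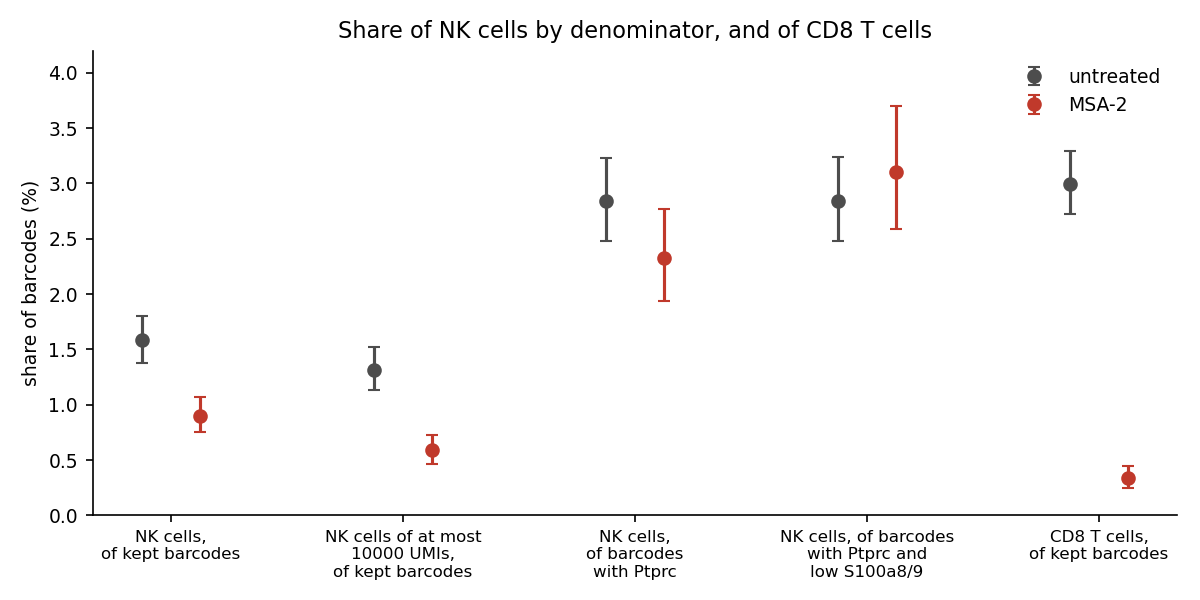
Share of barcodes (%, y axis) that were NK cells, by the cells counted in the denominator, and the share of CD8 T cells, in the untreated (gray) and MSA-2 (red) libraries. Points are 1 library each and bars are exact 95% intervals of counting error. The NK share is lower after MSA-2 among kept barcodes and overlaps once the denominator is restricted to barcodes with Ptprc, while the CD8 T cell share goes from 3.00% to 0.337%.

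Gene levels were compared as summed CPM. A gene was measured with at least 30 NK UMIs over both libraries and 50 CPM in either, and was counted as past 2-fold where the log2 of the MSA-2 level over the untreated level, 10 CPM added to each, was at least 1 or at most -1. Of 3687 genes measured, 175 (4.75%) were past 2-fold higher and 108 (2.93%) past 2-fold lower in MSA-2 NK cells. In shallow NK cells 169 (4.81%) of 3516 were higher and 151 (4.29%) lower. The 2 sets of cells shared 91 of the higher and 79 of the lower genes, and the median log2 ratio over all genes measured was -0.08. With the profile of the Ptprc-free deep cells subtracted from the NK sums, 260 genes were higher and 294 lower, so the direction that held more genes changed. Genes at least 2-fold above the level of all other barcodes in either library, 564 in number, are called NK-enriched here, and since a gene can enter by the library in which it is high, they are used to name genes and not counted by direction. The log2 ratios given below for single genes are of the levels themselves, with nothing added.

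**Figure D2:**
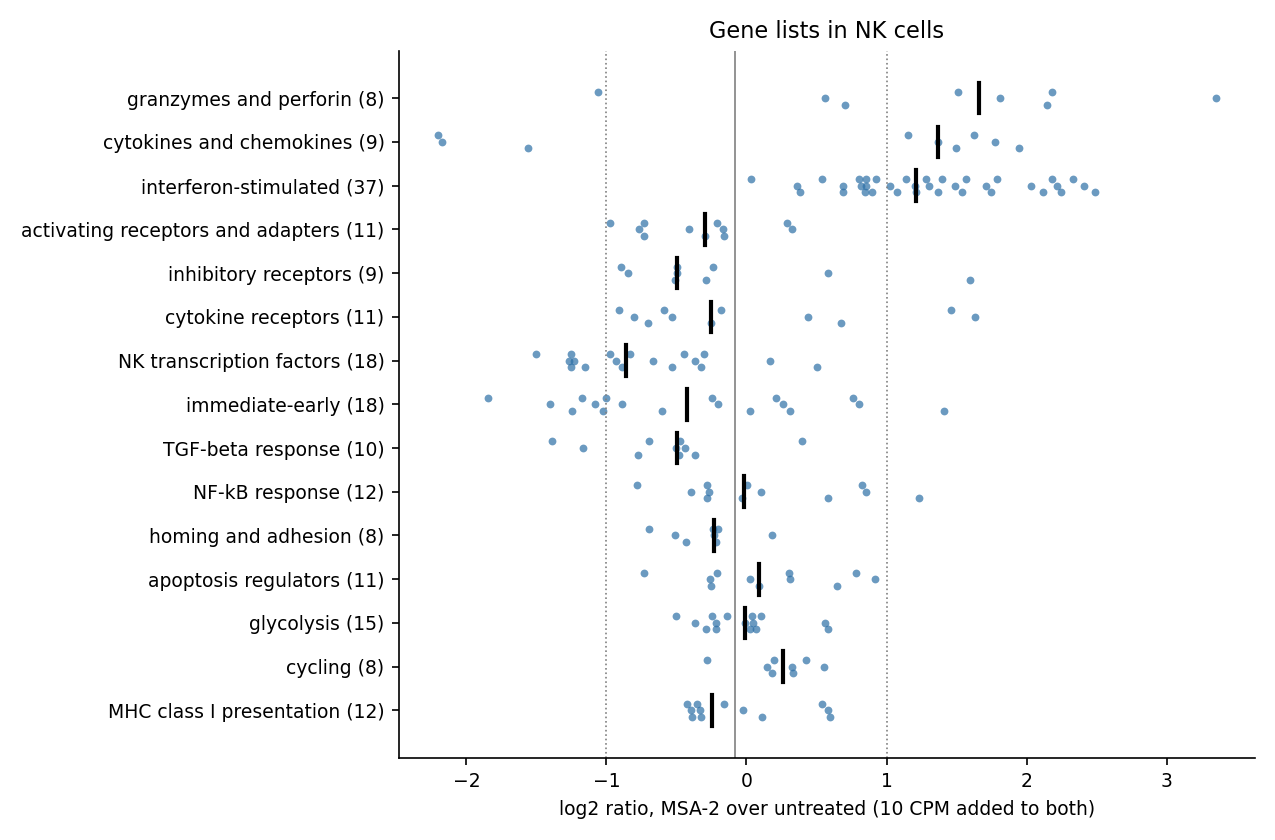
Log2 ratio of MSA-2 over untreated NK cells (x axis, 10 CPM added to both levels) of each measured gene in 15 lists, with the number of measured genes in brackets. Points are genes, black bars are list medians, the gray line is the median of all genes measured (-0.08) and dotted lines mark 2-fold. All 37 interferon-stimulated genes lie above 0, the granzymes and cytokines hold genes past 2-fold on both sides, and no gene of the glycolysis, cycling and MHC class I lists is past 2-fold. Over all genes measured, 4.75% are past 2-fold higher and 2.93% lower.

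Granzymes and perforin differed strongly between the libraries. Of 8 measured members, 5 were past 2-fold higher and 1 lower, with a median log2 ratio of 1.66, and 4 and 1 with a median of 1.20 in shallow NK cells. Gzma, the granzyme that triggers death without caspases, stood at 708 CPM in untreated NK cells and 3164 CPM after MSA-2, a log2 ratio of 2.16 (2.07 to 2.25). In shallow cells it stood at 1153 and 5875 CPM. Gzma (chr13:113093825-113100981) was thus higher in both sets of cells. Gzmb, which cleaves caspases and Bid, was at 924 and 1513 CPM (0.71, 0.62 to 0.80), and perforin (Prf1) at 396 and 589 CPM (0.57, 0.43 to 0.71). Both were higher after MSA-2 without passing 2-fold, also in shallow cells (1265 and 2006 CPM, 558 and 867 CPM). Gzmk and Gzmm had at most 6 UMIs in either library and were not measured.

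The other granzymes lie with Gzmb on chromosome 14, on the minus strand, over 144.6 kb (chr14:56117626-56262260, GENCODE M21), and they did not move as a block. Gzmc was the most abundant granzyme of untreated NK cells, at 6386 CPM, and stood at 3056 CPM after MSA-2, a log2 ratio of -1.06 (-1.11 to -1.01), with 7868 and 2757 CPM in shallow cells. Its neighbors went the other way. Gzmf, the nearest of them, was at 268 and 2832 CPM (3.40, 3.26 to 3.54), and at 290 and 3273 CPM in shallow cells. Gzmd was at 564 and 1630 CPM (1.53) and Gzme at 135 and 648 CPM (2.26), with 381 and 1032 CPM and 135 and 279 CPM in shallow cells, where Gzme with 10 CPM added was within 2-fold. Gzmg was at 122 and 453 CPM, with 0 UMIs in untreated shallow cells, which allows up to 2.91 CPM, and 84.6 CPM in MSA-2 shallow cells. In CD8 T cells Gzmf was at 344 and 86.7 CPM and Gzme at 67.4 and 12.7 CPM, lower in the MSA-2 library. Reads of Gzmd, Gzme, Gzmf and Gzmg, which are close paralogs, can be assigned to one another, so their separate levels are uncertain.

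Gzmf UMIs came from 16 of 222 untreated and 41 of 126 MSA-2 NK cells, and the highest cell held 14.2% of the MSA-2 UMIs. Gzma was spread more widely, over 98 and 102 cells. Because depth differed, shares of cells were taken after thinning to 1500 UMIs. Gzma was then found in 33.5% (27.3% to 40.1%) of untreated and 72.0% (63.3% to 79.7%) of MSA-2 NK cells, Gzmc in 64.7% and 44.0%, and Gzmf in 4.98% and 28.0%. The share with Gzmb went from 55.2% to 73.6% and with Prf1 from 42.1% to 56.0%. In C1q macrophages, which do not make them, Gzma was found in 0.351% and 0.669% and Gzmc in 2.05% and 0.780% of cells, at median depths of 5800 and 5116 UMIs.

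Seen per cell, the mix of granzymes shifted from Gzmc toward Gzma. Cells with Gzmc and no Gzma were 46.6% of untreated (103 of 221) and 15.2% of MSA-2 NK cells (19 of 125). Cells with Gzma and no Gzmc were 15.4% (34) and 43.2% (54). Cells with both were 18.1% and 28.8%, and with neither 19.9% and 12.8%. A UMI of any of Gzmd, Gzme, Gzmf or Gzmg was found in 36 untreated (16.3%) and 50 MSA-2 NK cells (40.0%). Of those cells, 35 of 36 and 39 of 50 also had Gzmc, and 4 of 36 and 35 of 50 also had Gzma. Over all thinned NK cells Gzmc was found in 143 of 221 and 55 of 125, and Gzma in 74 of 221 and 90 of 125. In the untreated library all but 1 of the cells with these transcripts thus had Gzmc. Gzmc lies in the same cluster, and whether its reads were assigned to these genes was not tested. In the MSA-2 library the cells with transcripts of Gzmd to Gzmg held Gzma about as often as NK cells did in general. In shallow NK cells any of Gzmd to Gzmg was found in 15.2% (10.4% to 21.2%) and 28.4% (18.9% to 39.5%), with overlapping intervals. Shallow cells with Gzmc and no Gzma were 46.2% and 9.88%, and with Gzma and no Gzmc 17.9% and 55.6%.

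**Figure D3:**
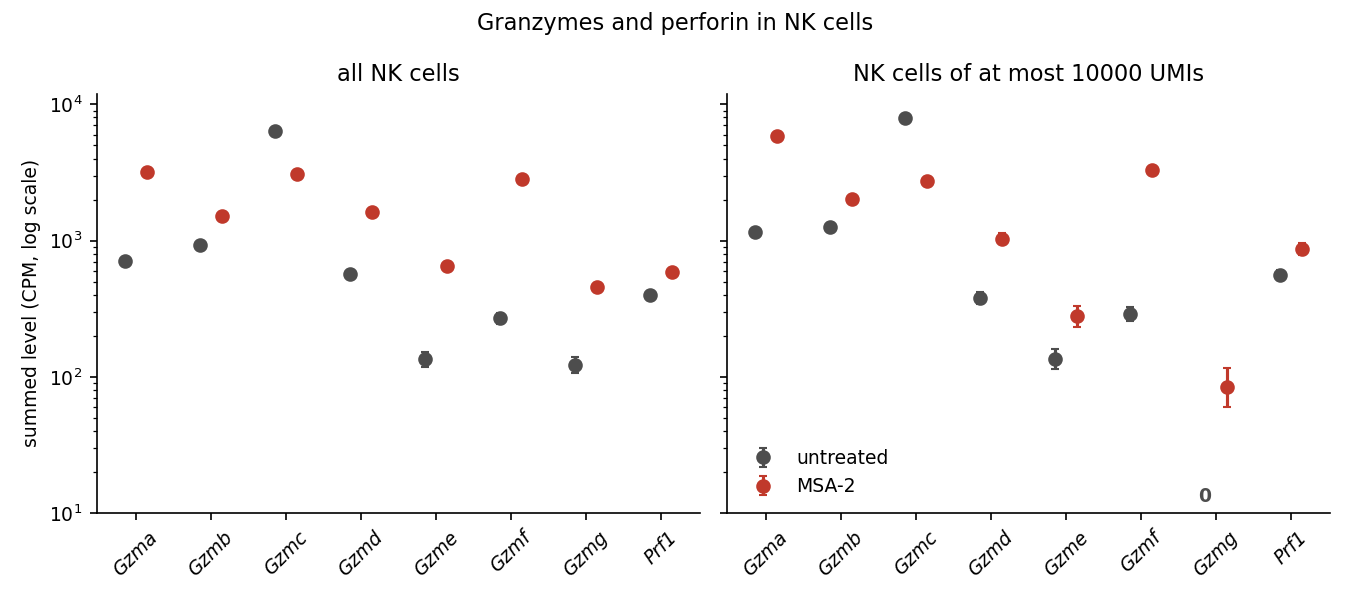
Summed level (CPM, log scale, y axis) of granzymes and perforin (x axis) in all NK cells (left) and in NK cells of at most 10000 UMIs (right), in the untreated (gray) and MSA-2 (red) libraries. Points are 1 library each, bars are exact 95% Poisson intervals, and 0 marks a gene with no UMI. Gzmc is lower in the MSA-2 library, while the other 7 genes are higher, in both panels.

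Gzmc and Gzmf are shown by the sequence before their start, since they are neighbors that moved in opposite directions. The sequences are from RefSeq (GRCm38.p6, minus strand, 5′ to 3′) and are followed by the gene on the 3′ side. Capitals mark bases without an identical partner in a global alignment of this pair.
Gzmc, chr14:56234658-56234907: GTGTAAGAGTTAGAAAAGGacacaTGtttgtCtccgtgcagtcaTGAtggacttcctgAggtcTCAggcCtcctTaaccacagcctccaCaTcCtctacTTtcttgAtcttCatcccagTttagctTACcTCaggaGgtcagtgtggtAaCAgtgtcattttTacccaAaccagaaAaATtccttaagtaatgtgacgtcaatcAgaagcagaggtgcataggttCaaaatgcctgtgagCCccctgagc
Gzmf, chr14:56211418-56211657: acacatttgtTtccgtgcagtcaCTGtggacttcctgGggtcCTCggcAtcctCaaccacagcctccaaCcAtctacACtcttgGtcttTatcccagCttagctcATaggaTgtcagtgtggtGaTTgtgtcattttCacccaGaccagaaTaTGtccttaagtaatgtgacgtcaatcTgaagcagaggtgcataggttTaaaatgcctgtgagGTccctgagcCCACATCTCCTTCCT
Of the aligned positions, 193 were identical, 32 were mismatches and 40 were gaps, 72.8% identity. Over the 15 pairs of the 6 cluster genes named above, with gaps at the ends counted in the same way, identity ran from 43.8% (Gzmb and Gzme) to 89.2% (Gzmd and Gzme). A further granzyme gene of this stretch, Gzmn, was in none of the gene lists and was not measured.

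Cytokines and chemokines were split. Of 9 measured, 6 were past 2-fold higher and 3 lower, with a median log2 ratio of 1.36, and 5 and 2 of 8 with a median of 1.62 in shallow NK cells. Ifng, which encodes interferon-γ, was at 305 CPM in untreated NK cells and 1068 CPM after MSA-2 (1.81, 1.67 to 1.95), and at 401 and 1721 CPM in shallow cells. The share of thinned NK cells with Ifng went from 27.6% to 58.4%, against 0.964% and 0.446% of C1q macrophages. In CD8 T cells the share with Ifng went from 44.1% to 88.9%, so the higher share was not particular to NK cells. Tnf was at 31.5 and 150 CPM (2.25, 1.83 to 2.70), and Myc, a growth gene that cytokines induce in NK cells, at 77.3 and 179 CPM (1.21). In shallow cells they were at 41.8 and 254 CPM and at 80.6 and 266 CPM. The chemokines Ccl3 (66.3 and 186 CPM), Ccl4 (606 and 1887 CPM) and Ccl5 (770 and 2190 CPM) were higher by 1.49, 1.64 and 1.51 on the log2 scale, and stood at 96.2 and 374, 861 and 4082, and 1064 and 2810 CPM in shallow cells. These chemokines were also abundant outside NK cells, at 520, 1772 and 1282 CPM over all other MSA-2 barcodes, and the part of free RNA in their NK levels was not tested. For Tnf it was not tested either. After thinning, Tnf was found in 28.7% and 61.6% of C1q macrophages, against 4.52% and 22.4% of NK cells. Csf1 was at 36.4 and 93.2 CPM over all NK cells but at 16.5 and 12.7 CPM in shallow cells, so its direction turned with the depth of the cells.

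Xcl1, Ltb and Tgfb1 were lower in the MSA-2 library. Xcl1, the chemokine that draws cross-presenting dendritic cells, was at 1390 and 294 CPM (-2.24, -2.39 to -2.09), and at 2065 and 721 CPM in shallow cells. It was found in 68.3% of untreated and 31.2% of MSA-2 NK cells after thinning, the reverse of Ifng. Tgfb1, which encodes TGF-β1, was at 316 and 62.3 CPM (-2.34, -2.67 to -2.02), and at 440 and 76.1 CPM in shallow cells. Its share of cells went from 43.4% to 9.60%. The share with Tgfb1 was also lower in CD8 T cells (21.5% and 6.67%) and in C1q macrophages (18.1% and 8.81%). Ltb, which encodes lymphotoxin-β, was at 144 and 42.2 CPM (-1.77), and at 165 and 99.4 CPM in shallow cells.

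**Figure D4:**
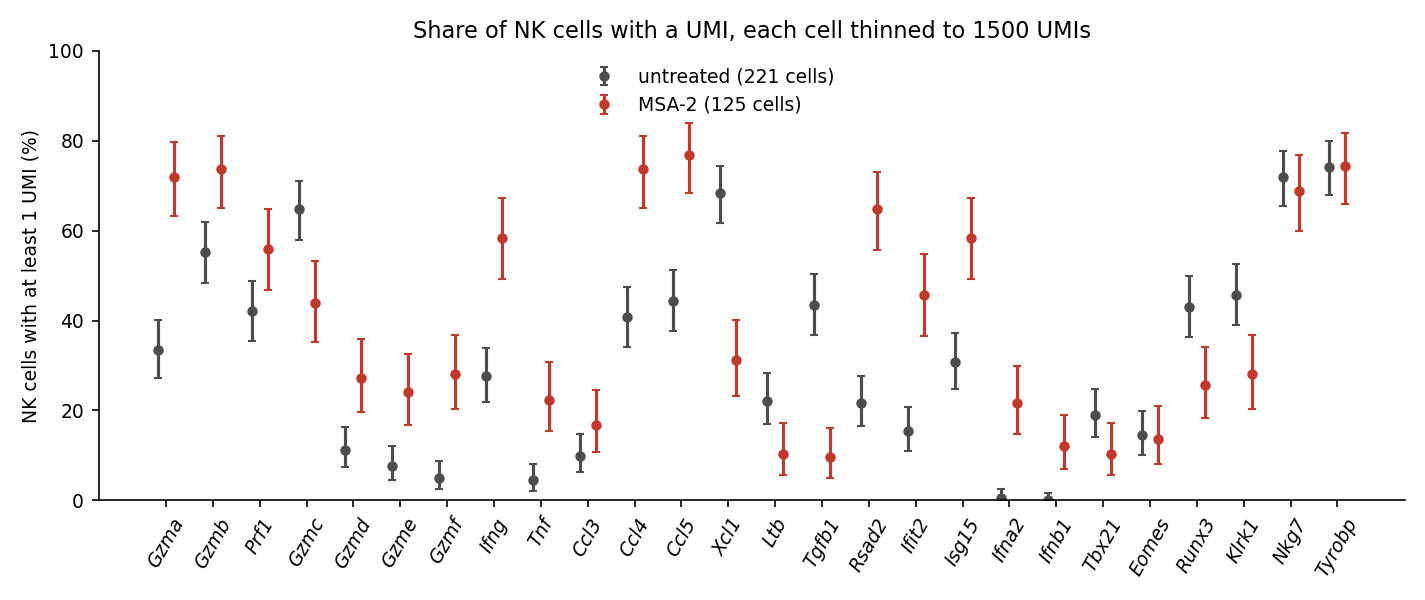
Share of NK cells with at least 1 UMI of a gene (%, y axis) after each cell was thinned to 1500 UMIs, for 26 genes, in 221 untreated (gray) and 125 MSA-2 (red) NK cells. Points are 1 library each and bars are exact 95% Clopper-Pearson intervals. Gzma, Ifng, Ccl4, Ccl5 and Rsad2 are found in more and Gzmc, Xcl1, Tgfb1 and Runx3 in fewer MSA-2 cells, while Nkg7 and Tyrobp overlap. In Ptprc-free deep cells the share with Ccl4 goes from 18.4% to 32.5%, with Ccl5 from 16.7% to 45.1% and with Rsad2 from 18.3% to 59.5%. The part of free RNA in the NK shares was not tested.

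Type I interferon transcripts were found in NK cells of the MSA-2 library. Ifna2 (chr4:88682881-88683912) was among the 10 NK-enriched genes with the highest log2 ratio, and the other type I interferon genes were looked up after its value had been seen. Of 18 such genes among the features, 2 had a UMI in untreated and 9 in MSA-2 NK cells. Ifna2 had 6 UMIs in 2 untreated cells (3.31 CPM) and 228 UMIs in 67 MSA-2 cells (153 CPM, 134 to 174), and 271 CPM in shallow MSA-2 cells. Its highest MSA-2 cell held 12 UMIs, so the level did not come from a few cells. Over all other MSA-2 barcodes Ifna2 was at 6.87 CPM and had a UMI in 4.47% of barcodes, against 53.2% of NK cells, with 53.5 CPM in CD8 T cells, 21.3 CPM in C1q macrophages and 1.03 CPM in Ptprc-free cells of at least 10000 UMIs. After thinning it was found in 21.6% (14.7% to 29.8%) of NK cells, 11.1% of CD8 T cells, 2.68% of macrophages and 0.0570% of the Ptprc-free cells. Ifnb1, which encodes interferon-β, had another order. It was at 1.66 and 82.5 CPM in NK cells, from 3 and 123 UMIs, and at 111 and 921 CPM in macrophages. Of the cell classes compared, macrophages had the highest level in both libraries. Monocytes, dendritic cells and neutrophils were not among these classes. Over all other MSA-2 barcodes Ifnb1 was at 106 CPM with a UMI in 32.9% of barcodes, against 33.3% of NK cells, so that NK cells did not stand above the rest. Ifna4 had 31, Ifna16 30 and Ifna1 10 UMIs in MSA-2 NK cells and 0 in untreated ones, which allows up to 1.66 CPM. Genes of the Ifna family are near-identical, so UMIs of one can be counted for another.

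**Figure D5:**
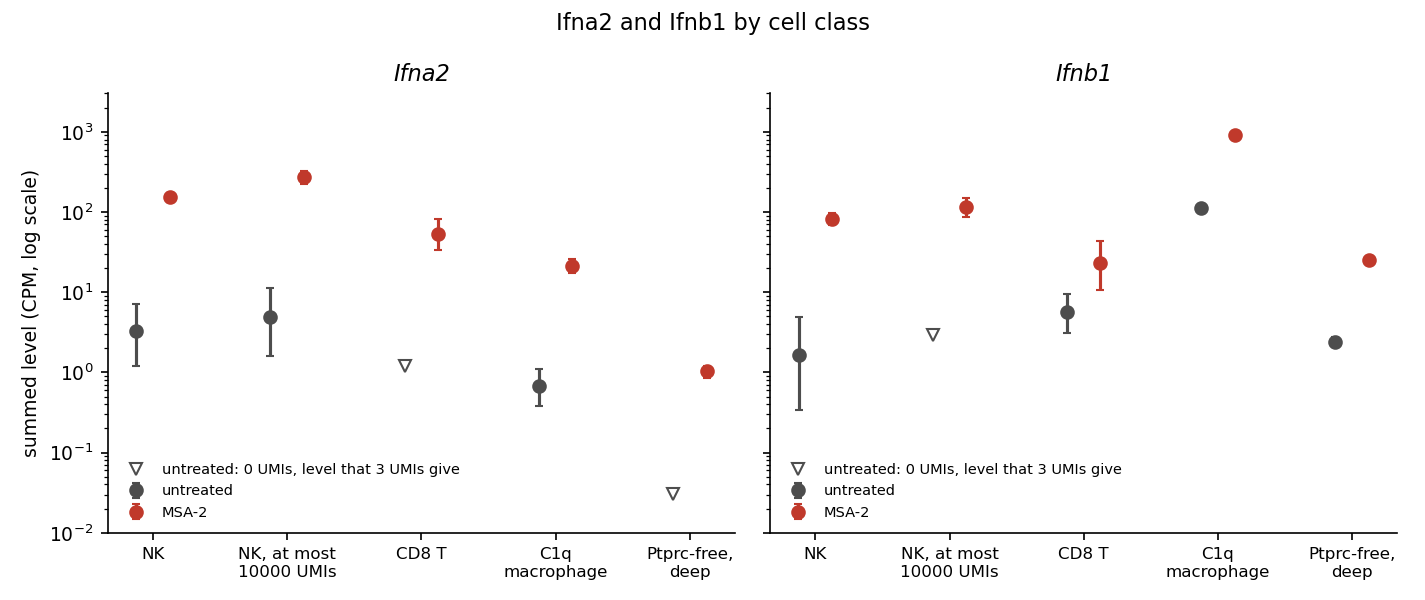
Summed level (CPM, log scale, y axis) of Ifna2 (left) and Ifnb1 (right) by cell class (x axis) in the untreated (gray) and MSA-2 (red) libraries. Points are 1 library each with exact 95% Poisson intervals, and open triangles are classes with 0 UMIs, drawn at the level that 3 UMIs give. Of the classes compared in the MSA-2 library, Ifna2 is highest in NK cells, at 153 CPM, and Ifnb1 in C1q macrophages, at 921 CPM.

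Interferon-stimulated genes were higher throughout. All 37 measured genes of the list had a ratio above 0, 23 were past 2-fold higher and 0 lower, and the median log2 ratio was 1.21, with 36 of 37 above 0, 26 past 2-fold and the same median in shallow NK cells. Their summed level went from 3162 to 9042 CPM, against 4271 and 9884 CPM over all other barcodes. The part of free RNA in the NK levels was not tested. Rsad2, which encodes the antiviral enzyme viperin, was at 192 and 1126 CPM (2.55, 2.38 to 2.72), and at 222 and 911 CPM in shallow cells, and was found in 21.7% and 64.8% of thinned NK cells. Its neighbor Cmpk2, a mitochondrial nucleotide kinase gene on the other strand (chr12:26469204-26479837), was at 7.73 and 79.1 CPM (3.36). Ifit2 was at 113 and 526 CPM (2.22) and Ifit3 at 107 and 467 CPM (2.13), genes whose products bind viral RNA or the complexes that do. Usp18, which removes ISG15 from proteins and damps the type I interferon receptor, was at 31.5 and 186 CPM (2.57). Shallow cells had Ifit2 at 153 and 858 CPM and Usp18 past 2-fold higher as well. The median log2 ratio of the same list was 1.38 in CD8 T cells, 1.33 in C1q macrophages and 1.17 in Ptprc-free deep cells, so NK cells lay within the range of the other classes. Of the cGAS-STING list, 3 genes were measured and Ifi204, a DNA sensor, was past 2-fold (19.9 and 106 CPM, 2.41), while Cgas and Tmem173, the gene of STING, were under the limit at 17.7 and 21.5 CPM and 19.3 and 25.5 CPM. Ifit3 and Ifit3b are near copies of each other and their separate levels are uncertain.

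The sequences before Rsad2, Ifit3 and Ifna2 are shown because these genes carry the interferon result. Capitals mark matches to GAAANNGAAA, the core of the interferon-stimulated response element, on either strand (TTTCNNTTTC on the other). All are from RefSeq on GRCm38.p6, 5′ to 3′ along the gene, and end before its annotated start.
Rsad2, chr12:26456453-26456702, minus strand: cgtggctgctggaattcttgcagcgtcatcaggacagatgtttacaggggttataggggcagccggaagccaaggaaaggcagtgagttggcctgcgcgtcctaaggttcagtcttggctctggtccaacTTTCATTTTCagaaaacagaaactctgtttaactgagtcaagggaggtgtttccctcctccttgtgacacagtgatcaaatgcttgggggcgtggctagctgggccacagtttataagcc
Ifit3, chr19:34583279-34583528, plus strand: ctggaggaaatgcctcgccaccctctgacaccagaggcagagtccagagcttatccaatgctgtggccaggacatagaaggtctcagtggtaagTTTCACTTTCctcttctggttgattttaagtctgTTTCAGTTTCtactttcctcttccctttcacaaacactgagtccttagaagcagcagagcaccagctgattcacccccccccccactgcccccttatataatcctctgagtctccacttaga
Ifna2, chr4:88683913-88684029, minus strand: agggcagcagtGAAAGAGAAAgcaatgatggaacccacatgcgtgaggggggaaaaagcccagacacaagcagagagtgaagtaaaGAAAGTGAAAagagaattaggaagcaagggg
The motif begins 120 bases before the RefSeq start of Rsad2, 156 and 122 bases before that of Ifit3, and 239 and 164 bases before that of Ifna2, whose printed stretch leaves off the 133 bases next to that start because they lie inside the gene in GENCODE. It was present within 250 bases before the start in 20 of the 37 listed interferon-stimulated genes that had a window (54.1%), against 3.46% of 27025 genes and 4.23% of 2934 measured NK genes with a window. Of the granzymes and perforin 1 of 8 held it, Gzma, at 97 bases before the start. Of 18 list genes past 2-fold with a window 9 (50%) held it, and Cmpk2 did not.

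Receptors by which NK cells see their targets mostly stayed within 2-fold, as did most genes measured. Of 11 measured activating receptors and adapters 0 were past 2-fold either way, against 4.75% higher and 2.93% lower over all genes. At those shares, 0 of 11 does not set these receptors apart. Their median log2 ratio was -0.29, and 0.02 in shallow cells. Of the 11, 2 had a ratio above 0, and the summed level of the list went from 4205 to 2889 CPM. Klrk1, which encodes NKG2D, was at 326 and 161 CPM, just inside the limit, and at 479 and 332 CPM in shallow cells. Fcer1g (1825 and 1093 CPM) and Tyrobp (806 and 656 CPM), the adapters that carry activating signals, stayed abundant. Of 9 inhibitory receptors Klrg1, a receptor for cadherins on mature NK cells, was past 2-fold higher, at 13.3 and 60.3 CPM (2.19, 1.52 to 2.90). It had 24 UMIs in 20 untreated and 90 UMIs in 45 MSA-2 cells, and stood at 18.5 and 86.7 CPM in shallow cells. The Ly49 genes Klra7 (187 and 129 CPM) and Klra3 (88.9 and 71.1 CPM) did not pass 2-fold, and reads of Ly49 paralogs can be shared.

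Among 11 cytokine receptors 2 were past 2-fold higher, both of the receptors for IL-2 and IL-15, against 4.75% of all genes measured. Il2ra, the high-affinity chain that activated lymphocytes gain, was at 18.8 and 69.1 CPM (1.88), and Il15ra at 12.7 and 60.3 CPM (2.25), and both stayed past 2-fold in shallow cells. The shared chains Il2rb (681 and 449 CPM) and Il2rg (173 and 117 CPM) were not past 2-fold. Il21r, which was under the level limit for a gene to be measured, had 84 untreated and 10 MSA-2 UMIs. In shallow cells it was measured and past 2-fold lower, at 68.0 and 12.7 CPM. Cish, an inhibitor that IL-15 and IL-2 induce, was past 2-fold lower, at 102 and 44.9 CPM (-1.19), and at 142 and 50.7 CPM in shallow cells.

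Among transcription factors of the NK program, those past 2-fold were lower. Of 18 measured, 6 were past 2-fold lower and 0 higher, with a median log2 ratio of -0.86, and 5 lower and 1 higher with a median of -0.68 in shallow cells. In CD8 T cells 6 of 17 measured genes of this list were lower and 0 higher, with a median of -0.56. The lower levels were thus not particular to NK cells. Tbx21, which encodes T-bet and drives maturation and Ifng, was at 107 and 38.9 CPM (-1.45, -1.90 to -1.02), but at 152 and 84.6 CPM in shallow cells, within 2-fold. Eomes, its partner that separates NK cells from ILC1, was at 80.1 and 59.7 CPM (-0.42, -0.82 to -0.03), and Runx3, which works with both, at 361 and 144 CPM (-1.32), and within 2-fold in shallow cells. Foxo1, which restrains NK maturation, was at 119 and 35.5 CPM (-1.74), and at 171 and 44.4 CPM in shallow cells. Runx2, Bach2 and Rora were the others past 2-fold lower. Zeb2, which acts with T-bet in late maturation, was at 156 and 225 CPM (0.53), and past 2-fold higher in shallow cells, at 117 and 247 CPM.

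Over all NK cells, genes of early maturation and of the ILC1-like list were lower where they passed 2-fold, while those of late maturation were not. Of 5 measured late NK genes 1 was past 2-fold higher, Klrg1, and 0 lower, with a median log2 ratio of 0.50. Of 5 measured early NK genes 3 were past 2-fold lower, namely Xcl1, Ltb and Emb, an adhesion protein (503 and 174 CPM, -1.53). The median log2 ratio of these genes was -1.48, but -0.10 over 9 measured in shallow cells, where 2 were past 2-fold lower, Xcl1 and Emb, and 1 was higher. Of 4 measured ILC1-like genes 2 were lower, Gzmc and Inpp4b, a lipid phosphatase (229 and 74.4 CPM, -1.62). Itga1, which encodes CD49a, was at 86.7 and 49.6 CPM (-0.81), and Cxcr6, Itgae and Zfp683 had 20, 14 and 3 UMIs in untreated and 3, 1 and 0 in MSA-2 NK cells. Of 10 genes of the TGF-β response 2 were past 2-fold lower and 0 higher, both feedback inhibitors of SMAD signaling, Ski (136 and 45.6 CPM, -1.58) and Ldlrad4 (464 and 201 CPM, -1.21). Smad7, the main such inhibitor, was at 300 and 172 CPM (-0.81). Over all genes measured in NK cells, 4.75% were past 2-fold higher and 2.93% lower. In CD8 T cells 2 of 7 early, 3 of 6 ILC1-like and 4 of 9 TGF-β response genes were past 2-fold lower and 0 higher. These lists were thus not lower in NK cells alone.

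Immediate-early genes were split. Of 18 measured, 7 were past 2-fold lower and 1 higher, and in shallow cells 7 were lower and 3 higher. In CD8 T cells 9 of 18 were lower and 0 higher, with a median log2 ratio of -1.02. Dusp2, a phosphatase of MAP kinases, was at 733 and 196 CPM (-1.90, -2.09 to -1.72) and at 1057 and 323 CPM in shallow cells, and Btg2 (616 and 227 CPM), Junb (1259 and 551 CPM) and Nr4a3 (187 and 73.1 CPM) were also lower. Ier3 was higher (129 and 361 CPM, 1.48), while Fos (927 and 779 CPM) and Jun (1409 and 1431 CPM) were within 2-fold. In shallow cells Fos was at 495 and 704 CPM, the other direction. Cd69, an early activation receptor, was at 159 and 286 CPM (0.84), and at 215 and 488 CPM in shallow cells, where it was past 2-fold. In the NF-κB list 1 of 12 was past 2-fold, the feedback inhibitor Nfkbia (806 and 1903 CPM, 1.24). Of the lists for glycolysis (15 measured), MHC class I presentation (12), apoptosis regulators (11), homing (8), costimulatory receptors (3) and cycling (8), 0 genes were past 2-fold over all NK cells. Over all genes measured, 4.75% were past 2-fold higher and 2.93% lower. At those shares, 0 genes in lists this short, or 1 of 12, does not set a list apart.

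The NK-enriched genes with the lowest ratios were Nrarp, Xcl1, Tgfb1, Sema6d, Cables1, Ipcef1, Ighm, Eya2, Prkch and Dusp2. Nrarp, an inhibitor that Notch signaling induces, was at 88.9 CPM in 93 untreated cells and at 3.35 CPM in 5 MSA-2 cells (-4.73), and at 129 and 6.34 CPM in shallow cells. Prkch, a protein kinase C, was at 412 and 105 CPM (-1.98). Sema6d (117 and 21.5 CPM) and Eya2 (64.6 and 9.39 CPM) were lower as well. Those with the highest ratios were Cxcl5, Mmp3, Ifna2, Gzmf, Tagln, Gzme, Gzma, Ifit2, Postn and Gzmg. Of these, Cxcl5, Mmp3, Tagln and Postn are known from stromal and other cells, and all 4 were above the other barcodes in the MSA-2 library alone. Cxcl5 came from 15 cells with 56.7% of its UMIs in 1, and Tagln from 3 cells with 97.6% in 1. In shallow MSA-2 NK cells they were at 10.6, 6.34, 2.11 and 19.0 CPM.

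Over all genes, several of the most extreme ratios belonged to genes that other cells make. The 10 highest were of Saa3, Ptx3, Cxcl5, Mmp3, Cxcl2, Slpi, Serpinb2, Rarres2, Ifna2 and G0s2. Saa3, an acute-phase protein, was at 4.97 and 747 CPM, with 44.1% of its MSA-2 UMIs in 1 cell, and at 20.1 and 861 CPM over all other barcodes. Cxcl2, a neutrophil chemokine, was at 51.4 and 862 CPM (391.7 and 2948 CPM elsewhere) and Slpi, a protease inhibitor, at 1.66 and 152 CPM (7.75 and 408 CPM elsewhere). Both were also higher in shallow NK cells, at 61.2 and 983 CPM and 0.971 and 192 CPM. Of the 10 lowest, Nrarp, Xcl1, Tgfb1, Sema6d, Cables1 and Ipcef1 were NK-enriched. H2-Eb1, Cd74, H2-Aa and H2-Ab1, genes of MHC class II presentation, were the other 4 and the lowest, with H2-Eb1 at 245 and 5.36 CPM in NK cells and at 874 and 28.6 CPM over all other barcodes. The summed level of 10 dendritic cell markers, H2-Eb1, H2-Aa and H2-Ab1 included, was 657 and 31.5 CPM in NK cells and 2228 and 82.9 CPM in the others. Neutrophil markers went the other way. Their summed level over 12 genes was 37.0 and 514 CPM in NK cells and 112 and 1504 CPM in the others, and Retnlg and G0s2 had 0 UMIs in untreated NK cells. Macrophage markers were at 1122 and 382 CPM (5916 and 1225 CPM elsewhere), and fibroblast markers at 921 and 2099 CPM, but 295 and 410 CPM in shallow NK cells. NK levels of these markers moved in the same direction as those of the other barcodes, and the part of free RNA and doublets was not tested.

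Cycling cells were those with at least 3 of 10 mitotic and S-phase markers after thinning. They made up 19 of 221 untreated (8.60%, 5.26% to 13.1%) and 21 of 125 MSA-2 NK cells (16.8%, 10.7% to 24.5%), a log2 ratio of 0.97 whose interval ran from just above 0 to 1.94. Over 20 further draws of the thinning the counts ran from 20 to 25 and from 16 to 26, and the log2 ratio from 0.27 to 1.20, with a median of 0.79. The interval lay above 0 with no thinning (0.26 to 1.33), with thinning to a greater depth (0.19 to 1.73) and with 2 markers required (0.04 to 1.51). It included 0 with thinning to 1000 UMIs (-0.80 to 1.90) and with 4 markers required (-0.31 to 1.96). It also included 0 with Scrublet doublets removed (-0.08 to 2.01) and with no Cd3 UMI (-0.27 to 1.78). The same held with at least 3 NK UMIs (-0.30 to 1.86) and with cells low in tumor genes (-0.67 to 1.82). In shallow NK cells they were 9 of 184 and 6 of 81, a log2 ratio of 0.60 (-1.17 to 2.25), and over the 20 further draws the ratio ran from 0.67 to 1.60 with a median of 1.19. A difference was not detectable at that number of cells in the first draw. In CD8 T cells the shares were 8.23% and 24.4%, in Ptprc-free deep cells 18.1% and 19.1%, and in C1q macrophages, in the other direction, 4.94% and 1.56%.

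Cells with and without a Gzma UMI differed within each library. After thinning, 74 untreated and 90 MSA-2 NK cells had Gzma. In the untreated library they held more Prf1 (919 against 308 CPM), Gzmb (1865 against 853 CPM) and Ccl5 (2351 against 871 CPM) and less Gzmc (3396 against 7782 CPM) than cells without it. The same order held in the MSA-2 library for Prf1 (837 against 514 CPM), Gzmb (2215 against 1333 CPM), Ccl5 (3444 against 1962 CPM) and Gzmc (2496 against 4724 CPM). Without thinning, when 98 untreated and 102 MSA-2 cells had Gzma, the order of Gzmc in the MSA-2 library turned (3143 against 2792 CPM) and Ccl5 there was nearly level (2222 against 2092 CPM). Thinned values of Ifng and Gzmf had another pattern. Ifng was at 360 and 385 CPM in untreated cells with and without Gzma and at 1874 and 724 CPM in MSA-2 cells, and Gzmf at 243 and 340 CPM and at 3259 and 1524 CPM. After thinning, the interferon-stimulated list was nearly level between the sides, at 3261 and 3410 CPM in untreated and 9089 and 9695 CPM in MSA-2 cells. Without thinning it was nearly level in untreated cells (3109 against 3194 CPM) and lower in MSA-2 cells with Gzma (8381 against 11024 CPM). The 8 tumor genes were at lower levels in cells with Gzma, at 811 against 1501 CPM in untreated and 1230 against 2629 CPM in MSA-2 cells, and their part in these differences was not tested. The 35 MSA-2 cells without Gzma are few, and these values have no interval across mice.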

How the data were processed

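Single cells of MC38 tumors were profiled with droplet-based 3′ libraries, 1 per condition from tumors of 3 pooled mice. The deposited matrices hold raw UMI counts per gene and barcode for 32285 features, which the authors made with Cell Ranger (7.0.0 in the submitters' notes, 7.0.1 in the file header, and a different version in the study's methods) on mm10. No sample column was left unmapped. The labels call the cells tumor cells, although immune cells are present.

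Barcodes were gated by the rule given above. The members and the gene lists were chosen with earlier results of these data known. Counts were summed over the NK cells of a library and divided by their total. With 1 library per condition no test was run. Shares have Clopper-Pearson, levels Poisson and ratios conditional binomial intervals, all exact at 95% and for counting error only, and a count of 0 was read as allowing up to 3 counts. The code was tested on simulated sums. For rates of detection, cells were thinned to 1500 UMIs with a fixed seed, and shallower cells were left out (1 in each library). Doublets were called with Scrublet at an expected 0.8% per 1000 barcodes and were kept. Genes were named if they belonged to a list or ranked in the first 10 by log2 ratio (10 CPM added) in either direction, over all measured or over NK-enriched genes. A planned tumor cell gate on Krt8 and Krt18 (3 UMIs) held 0 barcodes, so Ptprc-free barcodes of at least 10000 UMIs with little C1q stood in, a choice made after the data were seen. Python 3.11.15 with numpy 2.4.6, scipy 1.17.1, pandas 2.3.3, scanpy 1.11.5 and matplotlib 3.10.9 was used, and R 4.3.3 with edgeR 4.0.16 for TMM factors alone. Some genes of the lists are not reported here by name. Promoter sequences are from RefSeq and positions from GENCODE, both on GRCm38.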

Additional observations from a re-analysis of the deposited data

Results flagged for a closer look

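Gzme and Gzmf had ratios of opposite sign in NK cells and CD8 T cells, which brought them up for a closer look. In NK cells Gzme was higher after MSA-2 with a log2 ratio of 2.26 (2.06 to 2.47), and in CD8 T cells lower with -2.40 (-4.04 to -1.15), at 67.4 and 12.7 CPM. Gzmf was higher in NK cells with 3.40 (3.26 to 3.54) and lower in CD8 T cells with -1.99 (-2.53 to -1.50), at 344 and 86.7 CPM. The difference between the classes was not tested, since each condition has 1 library. After thinning, Gzmf was found in 10.9% of untreated and 8.89% (2.48% to 21.2%) of MSA-2 CD8 T cells and Gzme in 2.91% and 2.22%, so the shares of cells hardly differed. The MSA-2 library held 47 CD8 T cells, with 34 Gzmf and 5 Gzme UMIs, and reads of these paralogs can be shared.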

How the results depend on the processing

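Over 1177 alternative values, 965 stayed within their counting interval or, for counts and list medians, within 1.5 times, 211 moved by more, among them a sign change of the NK share, and 1 called gene, Csf1, changed sign. The log2 ratio of the NK share was -1.17 with NK cells of at most 10000 UMIs, -0.47 with cells thinned before the gate (68 of 13413 and 46 of 12584), -0.29 of barcodes with Ptprc, 0.13 of those with little S100a8 and S100a9, and -1.18 per Ptprc-free deep cell. The cause was not tested. NK over CD8 T cells stood at 3.14 with cells thinned before the gate. Genes past 2-fold lower numbered 294 with the tumor profile subtracted, where 260 were higher. With 50 CPM added, 87 were higher and 38 lower, and with at least 10 UMIs and no CPM minimum 315 were higher, which follows from the changed limits. The cytokine list then had a median of 0.51 over 14 genes. Csf1 turned to -0.22 (10 CPM added) in shallow cells. Of 53 called named genes, 52 kept their sign and 42 stayed past 2-fold in all 11 settings. TMM scaling moved the median of all genes to -0.03 and the share of higher among called genes from 61.8% to 66.4%. No paired analysis was possible because each condition has 1 sample. Depth limits genes of few UMIs, and the pooling of mice leaves the spread between animals unknown.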
